A study of Schizosaccharomyces pombe with 4 samples.

Results

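Intergenic CUTs that are not divergent are the 232 of 2509 cryptic unstable transcripts that lie between protein-coding genes and do not start back to back with one within a set distance. Each overlaps no gene on either strand and is less than 50% covered by any same-strand XUT (Xrn1-sensitive unstable transcript). Its 5′ end does not lie within 500 nt upstream of the 5′ end of an opposite-strand gene. Of the other CUTs, 1800 overlap a gene, 371 are intergenic and divergent from a gene, and 106 are intergenic and shared with a XUT. The table holds 11620 entries after pieces of coding sequence and repeated entries were set aside. It comes from strand-specific RNA-seq of rRNA-depleted total RNA of the fission yeast *Schizosaccharomyces pombe*, with ERCC spike-in RNA added. The *rrp6*Δ strain, which lacks the nuclear exonuclease gene *rrp6*, is compared with the wild-type (WT) strain, with 2 biological replicates each and no other change of genotype or treatment in the labels. The study used the comparison to find which transcripts Rrp6 keeps low.

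Rrp6 is a 3′ to 5′ exonuclease that works with the nuclear exosome. In yeasts, RNA polymerase II also transcribes stretches between genes, and many of these RNAs are removed in the nucleus soon after they are made, which is why CUTs are seen mainly when Rrp6 is missing. In fission yeast a further route to the exosome starts with Mmi1, an RNA-binding protein that recognises repeats of the sequence TNAAAC in transcripts of meiosis and brings them to nuclear decay during vegetative growth. Transcription of an intergenic RNA toward a gene on the same strand is called tandem here, and such transcription is known to lower the downstream gene at some loci, for instance at phosphate-regulated genes.

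The sequences below are those on which the description of the members turns. They were read from the RefSeq genome ASM294v3 on the strand of the CUT, 5′ to 3′, and capitals mark TNAAAC, except in the fourth, where they mark TATAAA. CUT249 has the most reads of all members, and its 300 nt richest in TNAAAC (chrII:339146-339445, minus strand) hold 13 matches. CUT938 (chrI:2520646-2520855, minus strand) holds 4 matches in 210 nt, and CUT408 (chrII:2162779-2163008, minus strand) holds 3 matches in 230 nt, side by side. The fourth is the stretch of 166 nt between the 3′ end of CUT408 and the gene SPBC1711.15c (chrII:2162613-2162778, minus strand), the gene with the largest rise among those downstream of tandem members. CUT1028 (chrI:3548413-3548708, minus strand), with the largest fold change of all members, holds no TNAAAC and has a run of 34 A.
CUT249: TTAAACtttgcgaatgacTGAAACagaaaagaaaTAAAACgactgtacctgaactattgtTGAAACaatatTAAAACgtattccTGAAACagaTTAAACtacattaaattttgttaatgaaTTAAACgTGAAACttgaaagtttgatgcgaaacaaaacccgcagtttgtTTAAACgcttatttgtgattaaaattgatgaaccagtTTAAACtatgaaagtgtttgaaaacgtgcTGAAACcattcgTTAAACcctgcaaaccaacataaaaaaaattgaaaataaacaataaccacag
CUT938: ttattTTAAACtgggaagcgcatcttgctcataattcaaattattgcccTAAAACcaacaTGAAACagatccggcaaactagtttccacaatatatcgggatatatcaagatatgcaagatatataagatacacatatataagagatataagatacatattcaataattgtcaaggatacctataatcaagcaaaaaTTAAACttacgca
CUT408: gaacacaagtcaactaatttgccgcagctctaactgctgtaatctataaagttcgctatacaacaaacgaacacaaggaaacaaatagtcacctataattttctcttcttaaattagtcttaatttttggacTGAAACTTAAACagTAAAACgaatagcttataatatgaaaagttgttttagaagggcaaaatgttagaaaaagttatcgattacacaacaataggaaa
CUT408 to SPBC1711.15c: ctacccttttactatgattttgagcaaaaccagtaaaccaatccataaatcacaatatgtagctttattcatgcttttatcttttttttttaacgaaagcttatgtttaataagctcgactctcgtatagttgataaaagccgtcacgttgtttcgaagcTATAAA
CUT1028: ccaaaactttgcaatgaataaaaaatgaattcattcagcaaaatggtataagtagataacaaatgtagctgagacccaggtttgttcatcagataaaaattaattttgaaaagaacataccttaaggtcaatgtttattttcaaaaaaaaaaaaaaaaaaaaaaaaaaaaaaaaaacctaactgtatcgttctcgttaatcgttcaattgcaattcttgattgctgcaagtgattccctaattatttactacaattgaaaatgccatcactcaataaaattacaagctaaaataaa

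The deletion was visible in the libraries: *rrp6* had 7.38 and 8 normalized read counts in *rrp6*Δ, against 2352 and 2842 in WT. All entries together received 75295117 and 64913330 reads in *rrp6*Δ and 68813840 and 82419985 in WT. Of 5073 protein-coding genes tested, 324 were higher in *rrp6*Δ (6.39%) and 30 lower (0.591%), at an adjusted p under 0.05 by limma and more than 2-fold. So 91.5% of the changed genes were higher. The share depended on scaling. It was 52.3% when TMM factors were taken over all transcripts, and the median transcript then shifted by −0.54 on the log2 scale. With TMM factors of protein-coding genes it was 80% (shift −0.25), under quantile normalization 38.4% (shift −0.72), and with DESeq2 size factors 36.0% (shift −0.66). Directions below are on the deposited scale. Of 25 measured factors of nuclear RNA decay, none was higher and *rrp6* alone was lower. The 6 meiotic transcripts listed (*mei4*, *spo5*, *rec10*, *ssm4*, *mcp5* and *sme2*) were all higher, with a sum of 12077 and 12904 in *rrp6*Δ and 879 and 1181 in WT. Of these sums, *sme2*, which overlaps the member CUT249, alone had 6188 and 6767 in *rrp6*Δ and 240 and 342 in WT. Markers of M cells summed to 2976 and 3062 in *rrp6*Δ and to 2267 and 2211 in WT, with *mfm1* and *mfm3* higher of 5 tested, and 0 of 3 tested markers of P cells changed (sums of 669 and 705 in *rrp6*Δ, 663 and 716 in WT). The part of these markers in the values below was not tested. In bulk RNA, fewer cells that make a transcript and less of it per cell cannot be told apart.

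The members were short and mostly of low count. Their length ran between 200 and 3113 nt, and 192 of them were shorter than 500 nt. The median was 307 nt, against 414 nt for the other CUTs and 333 nt for the divergent intergenic ones. The median member had 48.7 normalized read counts in *rrp6*Δ and 7.61 in WT, or per nt of length 0.166 in *rrp6*Δ and 0.0283 in WT. For all other CUTs the medians were 68.2 in *rrp6*Δ and 12.5 in WT, or per nt 0.144 and 0.0307. Divergent intergenic CUTs were at 0.201 and 0.0244 per nt. Members were thus lower than other CUTs in counts, but not per nt in *rrp6*Δ. All 232 passed the filter on low values and were called higher, beside 99.9% of all CUTs. Both *rrp6*Δ libraries lay above both WT libraries at each. These statements follow from how the study chose CUTs, by a rise of more than 2-fold in the same libraries, so levels and fold changes of members are given as a description, with no test.

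The size of the difference varied widely among the members. The median log2 fold change was 2.84, from 1.02 to 7.51, with 45 members above 4 and 34 under 1.5. It was 3.12 for the divergent intergenic CUTs, 1.69 for intergenic CUTs shared with a XUT, and 2.17 for CUTs over a gene. The *rrp6*Δ libraries lay within 1.5 times of each other at 211 members (90.9%). In WT the signal was thin, and 100 members (43.1%) had 10 or more reads in each WT library. At the rule's distance of 500 nt, the 27 members that start up to 100 nt beyond it had a median of 3.59, and the 27 divergent CUTs up to 100 nt within it a median of 2.61.

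Members were then placed by the nearest genes, since a transcript may run toward a gene start, follow a gene end, or stand alone. Of the 232, 86 were tandem, with the start of the next same-strand gene within 500 nt of the 3′ end. Another 41 began within 500 nt past the 3′ end of a same-strand gene, and 28 faced the 3′ end of an opposite-strand gene within that distance. The other 101 were remote. A total of 17 members were both tandem and past a 3′ end, and 7 both past and facing a 3′ end. Chromosome I held 93 members, chromosome II 80 and chromosome III 57, and the other 2 (CUT1 and CUT1258) lay on the separate contig of the mating-type region. The median log2 fold change was 2.80 for tandem members, 2.42 past a 3′ end, 2.42 facing a 3′ end and 2.89 for remote members. No test was made between these classes.

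**Figure D1:**
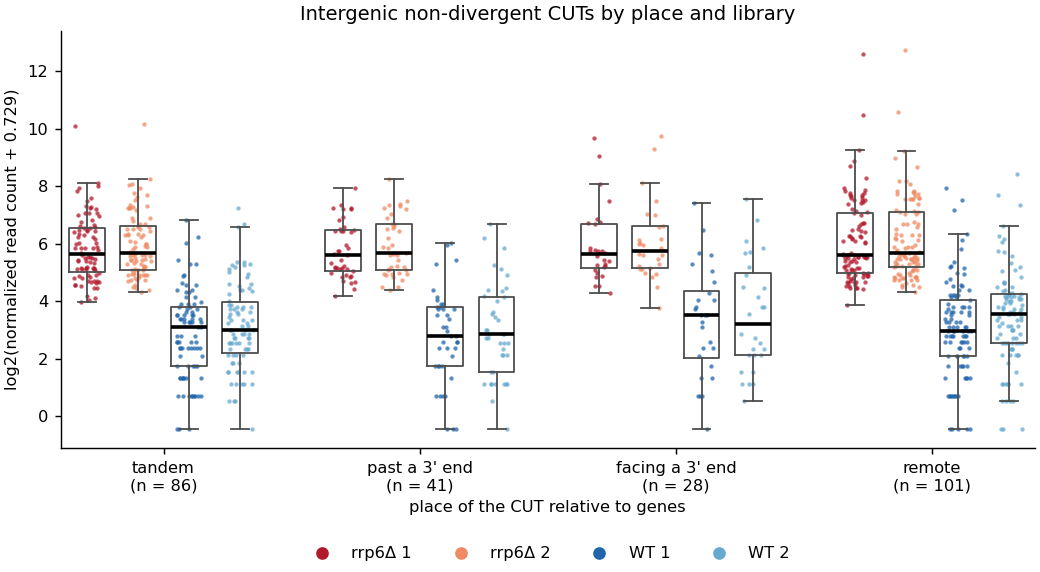
Normalized read count of each member in each library, on the scale log2(count + 0.729), by place relative to genes; points are CUTs, boxes span the quartiles with the median as a thick line, and members of more than 1 class are drawn in each. In every class the *rrp6*Δ boxes lie above the WT boxes, and CUT249 is the highest point of the remote class with 6210 and 6787 counts in *rrp6*Δ.

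The tandem members stood at a median of 238.5 nt from the gene start (9 to 495 nt), and those past a 3′ end at a median of 336 nt (22 to 490 nt). Members facing a 3′ end came closer, at a median of 148.5 nt (8 to 428 nt). Remote members on the chromosomes stood a median of 780 nt from the nearest gene (504 to 13144 nt, n = 99). The interval between genes that held a member had a median of 1911 nt (n = 226), a width that the distances in the rule favour. At 148 members the nearest gene upstream was on the opposite strand, so they started back to back with it, beyond the 500 nt of the rule. At 77 of 101 remote members the next gene downstream was on the same strand. These remote members pointed at a gene start from more than 500 nt away.

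**Figure D2:**
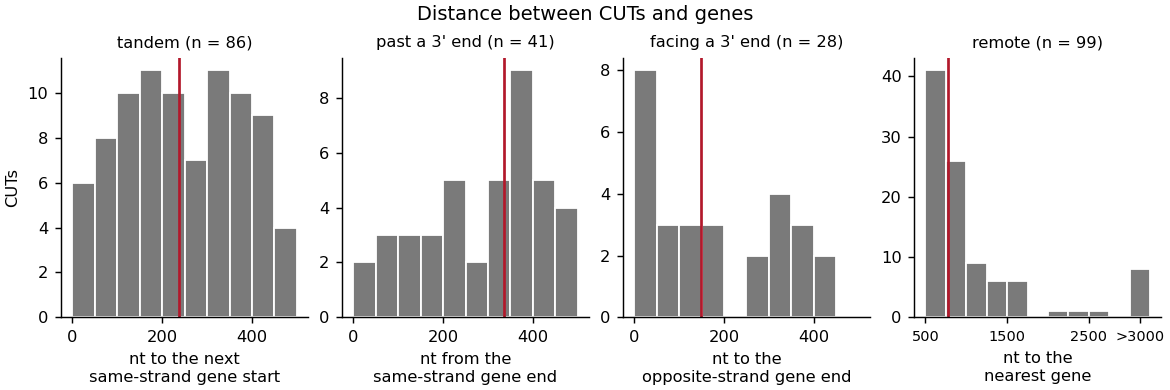
Distance in nt between members and genes for each class (x axis) and number of CUTs (y axis); the red line is the median. The distances to a gene end that a member faces are most often in the lowest bin, with a median of 148.5 nt, while those of tandem members spread over the whole range.

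CUT249 stood apart from every other member. It lay on chromosome II (339139 to 339959, minus strand, 821 nt), between *mrpl8*, a mitochondrial ribosomal protein gene, and SPBC1271.14, and overlapped *sme2* (SPNCRNA.103, which covers 74.8% of it in RefSeq), the gene of the meiotic non-coding RNA meiRNA, which gathers Mmi1 during meiosis. CUT249 had 6210 and 6787 normalized read counts in *rrp6*Δ, against 243 and 346 in WT (log2 fold change 4.48, standard error 0.15). Reads in the shared stretch count for both entries, so they are not independent. The genes on either side did not pass the thresholds: *mrpl8* was at 0.05 (standard error 0.13) and SPBC1271.14, which encodes a glutamate N-acetyltransferase, at −0.56 (standard error 0.12).

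This single transcript set much of the weight of the members among CUTs. Members received 34211 and 30091 reads in *rrp6*Δ, against 3965 and 6080 in WT, which is 6.90 and 7.07% of all CUT reads in *rrp6*Δ against 4.08 and 4.47% in WT. CUT249 alone took 22.1 and 22.6% of the member reads in *rrp6*Δ, against 6.94 and 7.81% in WT. Without it, members made up 5.46 and 5.56% of CUT reads in *rrp6*Δ and 3.81 and 4.13% in WT. Both *rrp6*Δ libraries lay above both WT libraries either way. CUTs were chosen by a rise in these same libraries, and 2 libraries against 2 cannot give a small p. The shares are therefore a description.

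Other remote members were high as well. CUT1097, on the annotated ncRNA SPNCRNA.965 between *dap1* and *kei1* on chromosome I, had 1426 and 1523 counts in *rrp6*Δ and 142 and 162 in WT. CUT680, between *gal7*, a gene of galactose use, and *pan5* on chromosome II, had 473 and 502 in *rrp6*Δ and 40.7 and 39.3 in WT. Its *rrp6*Δ and WT libraries were far apart, and it overlaps a long terminal repeat, the flank of a retrotransposon, as did 10 members in all. CUT1288, beside *spb70*, which encodes a DNA polymerase alpha subunit, had 605 and 596 in *rrp6*Δ and 183 and 208 in WT, the smallest log2 fold change of these 3 at 1.62 (standard error 0.16).

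Among remote members above the median level of all members, the largest fold changes were those of CUT1932, CUT2505 and CUT333. CUT1932, on chromosome II between SPBPB2B2.06c and SPBPB2B2.07c, had 235 and 289 counts in *rrp6*Δ and 1.77 and 5.83 in WT (log2 fold change 6.01, standard error 0.38). CUT2505, on SPNCRNA.278, had 182 and 226 in *rrp6*Δ and 6.19 and 5.83 in WT. CUT333, 1039 nt long and 1608 nt before *wis1*, the kinase gene of the stress pathway, had 227 and 268 in *rrp6*Δ and 8.84 and 8.01 in WT (log2 fold change 4.76, standard error 0.26). At all 3 both WT libraries were far below both *rrp6*Δ libraries. Those of CUT1932 differed from each other, and its log2 fold change was 5.32 without WT replicate 1 and 6.71 without WT replicate 2. The gene *wis1* itself was at −0.08 (standard error 0.11, adjusted p = 0.49 by limma). The 26 members within 100 kb of a chromosome end had a median log2 fold change of 3.12.

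Some of the remote members belonged to the longest gene-free stretches of the genome. CUT100 and CUT1386 lay in the interval between *chk1* and *ppc1* on chromosome III, which holds the centromere and spans 78172 nt, the widest in the table. CUT1386 had 133 and 137 counts in *rrp6*Δ and 14.1 and 18.9 in WT. CUT100, which lies between a pair of tRNA genes for arginine, had 25.4 and 23 in *rrp6*Δ and 0 reads in both WT libraries. Of the other members, CUT384 (29.5 and 40 in *rrp6*Δ) and CUT726 (32 and 36 in *rrp6*Δ) also had 0 reads in WT. Against a floor of 3 reads per WT library, CUT100 was at least 10-fold, CUT384 at least 14.4-fold and CUT726 at least 14.1-fold higher. The interval with the centromere of chromosome II, between *rpb1* and *yox1*, held CUT362, CUT363 and CUT1663. Their log2 fold changes of 1.22 to 1.36 were near the low end of the members. CUT362 was not remote and faced the 3′ end of *rpb1* at 33 nt. CUT1663 had 64.8 and 70 counts in *rrp6*Δ and 22.1 and 35.7 in WT.

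The members beside genes of meiotic entry stood at a distance. CUT1887, between *cyc3* and *ste11*, which encodes the master transcription factor of sexual differentiation, had 103 and 101 counts in *rrp6*Δ and 13.3 and 17.5 in WT. CUT1137, 1343 nt before *mei2*, which encodes the RNA-binding protein that starts meiosis, had 31.2 and 33 in *rrp6*Δ and 0 and 1.46 in WT. With 71 reads in *rrp6*Δ and 2 in WT, its ratio was 40.1 (95% exact interval 10.7 to 337, counting error only). The interval does not allow for the choice of CUTs by a rise. Neither gene met the thresholds. *mei2* had 730 and 791 counts in *rrp6*Δ and 1403 and 1290 in WT, a log2 fold change of −0.82 (standard error 0.13). *ste11* had 2106 and 2276 in *rrp6*Δ and 3172 and 2842 in WT, a log2 fold change of −0.46 (standard error 0.11). At both genes the *rrp6*Δ libraries were lower than both WT libraries by less than 2-fold.

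Among tandem members, CUT1007 was the most dense per nt. It lay 95 nt before *ssu72*, which encodes a phosphatase of the RNA polymerase II tail, and had 1081 and 1136 counts in *rrp6*Δ against 23.0 and 40.8 in WT (log2 fold change 5.14, standard error 0.23). *ssu72* had 509 and 493 in *rrp6*Δ and 467 and 638 in WT, so its libraries overlapped. CUT2294, on the opposite strand of CUT1007, had 28287 and 29435 counts in *rrp6*Δ and 10473 and 8569 in WT, and CUT1007 was at 3.82 and 3.86% of it in *rrp6*Δ, against 0.219 and 0.476% in WT.

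CUT1028 had the largest fold change of all members. It had 179 and 216 counts in *rrp6*Δ and 0.884 and 0 in WT, that is 434 reads in *rrp6*Δ and 1 in WT. The ratio was 490 (95% exact interval 87.4 to 19389, counting error only, while replicates differed by more than that). This interval does not allow for the choice of CUTs by a rise, nor of CUT1028 as the largest. CUT1028 ends 241 nt before *pan3*, which encodes a subunit of a poly(A) nuclease. *pan3* had 7884 and 8380 counts in *rrp6*Δ and 14845 and 12691 in WT, which is −0.76 on the log2 scale (adjusted p = 5.39e-06 by limma, standard error 0.10). This was the lowest value among genes downstream of tandem members and below the 2-fold threshold. *bsu1*, upstream on the opposite strand and a vitamin B6 carrier gene, was called higher at 1.03 (standard error 0.13), just above the 2-fold threshold.

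Several tandem members sat between genes read in the same direction. CUT1440, 448 nt before *bdf1*, which encodes a bromodomain protein, had 191 and 246 counts in *rrp6*Δ and 4.42 and 5.10 in WT. CUT1812, between *atg16*, an autophagy gene, and *xdj1*, had 113 and 152 in *rrp6*Δ and 2.65 and 1.46 in WT (log2 fold change 5.60, standard error 0.36). CUT1826, between *lsm5*, a gene of the U6 snRNA-binding ring, and *psl1*, had 96.0 and 118 in *rrp6*Δ and 4.42 and 7.29 in WT. At all 3 both WT libraries were far below both *rrp6*Δ libraries. The genes downstream did not change beyond the thresholds: *bdf1* was at −0.03 (standard error 0.10), *xdj1* at 0.11 (0.13) and *psl1* at 0.25 (0.13). CUT703, before SPAC806.04c, had 258 and 267 in *rrp6*Δ and 23.0 and 37.9 in WT. CUT2499, between *sec16* and *clr5*, had 86.1 and 101 in *rrp6*Δ and 5.30 and 3.64 in WT. CUT2314, before the ribosomal protein gene *rpl501*, had 84.5 and 86 in *rrp6*Δ and 5.30 and 5.83 in WT. The last 3 also showed *rrp6*Δ libraries close together and far above WT.

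**Figure D3:**
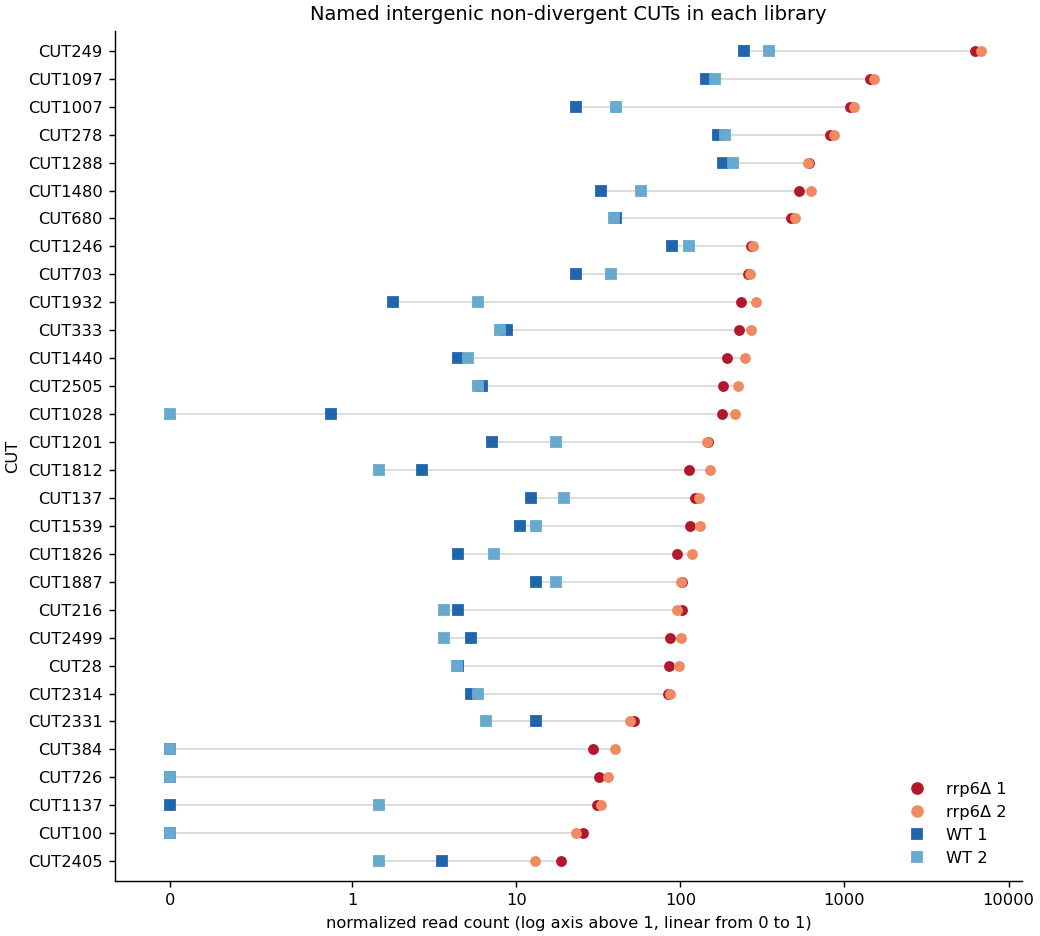
Normalized read counts (x axis, logarithmic above 1) of the named members (y axis, ordered by their mean in *rrp6*Δ) in the 4 libraries; circles are *rrp6*Δ and squares WT. No square reaches a circle of the same CUT, and CUT100, CUT384 and CUT726 have both squares at 0.

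Past 3′ ends and facing them, levels were of the same order. CUT1201, 359 nt past SPAC26F1.11, had 148 and 146 counts in *rrp6*Δ and 7.07 and 17.5 in WT. CUT137, 359 nt past SPCC584.03c, had 122 and 129 in *rrp6*Δ and 12.4 and 19.7 in WT, and CUT28, 388 nt past *cyp9*, had 85.3 and 98 in *rrp6*Δ and 4.42 and 4.37 in WT. All 3 began at a distance from the gene end, while the nearest of the class, CUT2331, began 22 nt past one. CUT1480, on SPNCRNA.513, ended 19 nt from the 3′ end of *erm2*, an aminopeptidase gene on the other strand, and had 532 and 626 in *rrp6*Δ and 32.7 and 57.6 in WT. CUT278, 1133 nt long and 43 nt from the 3′ end of *tea4*, a cell polarity gene, had 811 and 866 in *rrp6*Δ and 169 and 187 in WT. Both lay on annotated ncRNAs, and *erm2* (0.36, standard error 0.11) and *tea4* (0.25, standard error 0.11) did not pass the thresholds. CUT1246 had 268 and 276 in *rrp6*Δ and 88.4 and 114 in WT, CUT1539, 166 nt from the 3′ end of the iron transporter gene *fet4*, 115 and 131 in *rrp6*Δ and 10.6 and 13.1 in WT, and CUT216 102 and 96 in *rrp6*Δ and 4.42 and 3.64 in WT. CUT2331, in the short space between the ends of *taf12* and *rad54*, had 52.5 and 49 in *rrp6*Δ and 13.3 and 6.56 in WT. CUT2405, the longest member at 3113 nt, was the least dense of the named ones, with 18.9 and 13 counts in *rrp6*Δ and 3.53 and 1.46 in WT.

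The genes next to members were not used in choosing them and were tested with all transcripts. Of the 86 genes downstream of tandem members, 4 were higher in *rrp6*Δ (4.65%, beside 6.39% of all protein-coding genes) and none was lower (beside 0.591%). At an adjusted p under 0.05 by limma alone, 46 were higher and 10 lower, against 2368 and 359 of all 5073. Their median log2 fold change was 0.30, from −0.76 to 2.35, against 0.26 for all genes. The count is near the background share, and most genes with a CUT ending within 500 nt of their start showed no change beyond the thresholds.

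The gene that rose most was SPBC1711.15c, of unknown function, 166 nt downstream of CUT408. SPBC1711.15c had 5781 and 6333 counts in *rrp6*Δ and 1121 and 1254 in WT (log2 fold change 2.35, standard error 0.11, adjusted p = 4.47e-11 by limma). CUT408 itself had 27.1 and 42 counts in *rrp6*Δ and 3.53 and 1.46 in WT. Both *rrp6*Δ libraries were above both WT libraries for the gene, and at the CUT that follows from how CUTs were chosen. The same stretch held more: CUT1710, opposite to CUT408, had 207 and 192 in *rrp6*Δ and 8.84 and 8.01 in WT. The meiotic recombination gene *rec15*, which lies inside SPBC1711.15c on the opposite strand, had 49.2 and 43 in *rrp6*Δ and 5.30 and 15.3 in WT.

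The other genes that rose downstream of tandem members did so by little more than 2-fold. *pdc202*, a pyruvate decarboxylase gene 165 nt after CUT1996, had 579 and 658 counts in *rrp6*Δ and 228 and 277 in WT (log2 fold change 1.29, standard error 0.16). *agp3*, an amino acid transporter gene 390 nt after CUT205, had 1156 and 1214 in *rrp6*Δ and 484 and 544 in WT (1.21, standard error 0.14). SPCC191.01, 469 nt after CUT1438, had 3593 and 3544 in *rrp6*Δ and 1831 and 1689 in WT (1.02, standard error 0.11). At each of these genes the libraries of the strains did not overlap. Under 4 other scalings 1 or 2 genes of this class were called higher and 1 to 5 lower. *agp3* and SPCC191.01 lost their calls under all 4, *pdc202* under 3 of them, and SPCC191.01 also without WT replicate 2. Among genes with small adjusted p that stayed under 2-fold were *pfl3*, a cell surface glycoprotein gene, at 0.95 (standard error 0.11), *alo1* at 0.81, *etr1* at 0.81 and SPAC977.14c at 0.81.

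Of 40 tested genes (of 41) whose 3′ end a member followed, 6 were higher in *rrp6*Δ (15%, beside 6.39% of all protein-coding genes) and none lower (beside 0.591%). Their median of 0.29 was near that of all genes. SPBC28E12.02, which encodes an RNA-binding protein of the BICC1 family, had 50.9 and 54 counts in *rrp6*Δ and 2.65 and 3.64 in WT (log2 fold change 3.79, standard error 0.38, adjusted p = 1.58e-07 by limma). CUT1673, 226 nt past it, had 29.5 and 33 in *rrp6*Δ and 6.19 and 6.56 in WT, a separation that follows from how CUTs were chosen. *atg16*, 348 nt before CUT1812, had 752 and 779 in *rrp6*Δ and 325 and 432 in WT (1.03, standard error 0.16). The other 4 were SPAC4H3.04c (1.13), *wtf8* (1.13), *frp2*, a ferric-chelate reductase gene (1.11), and the retrotransposon *Tf2-11* (1.05). *wtf8* and *Tf2-11* belong to families of near-identical copies, so their counts are uncertain. Only SPBC28E12.02 kept its call under each of 4 other scalings. The class then had 1 gene called higher under each, while 172, 232, 117 and 143 of all 5073 genes were called in place of 324. The count was 3 without WT replicate 1, where SPAC4H3.04c, *atg16* and *wtf8* lost their calls, and *Tf2-11* lost its call without *rrp6*Δ replicate 2.

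**Figure D4:**
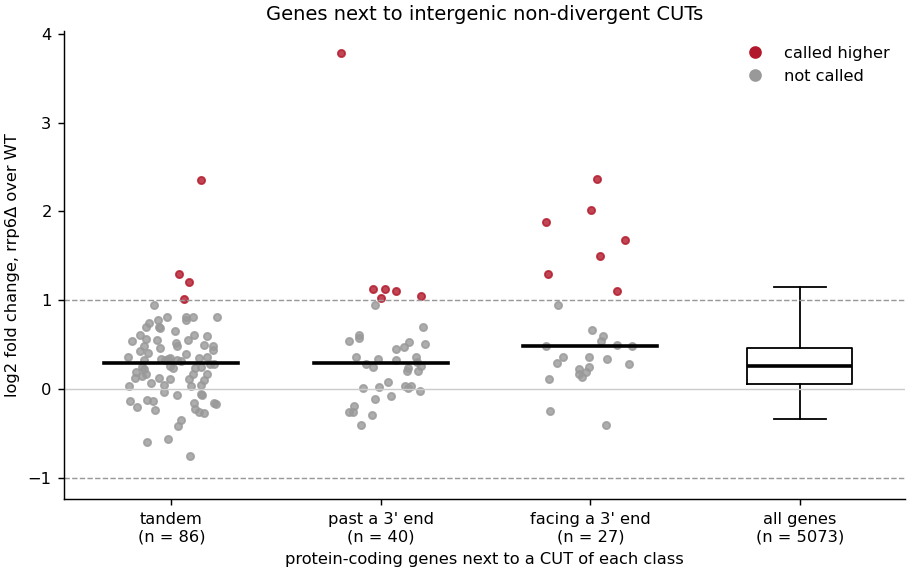
Log2 fold change (*rrp6*Δ over WT, y axis) of the genes next to members of each class, with the class median as a line; red points were called higher, and the box at the right spans the quartiles of all 5073 protein-coding genes with whiskers at the 5th and 95th percentiles. No gene was called lower, and 4 of 86, 6 of 40 and 7 of 27 were called higher in the classes from left to right.

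Of the 27 genes whose 3′ end a member faced, 7 were higher (25.9%, beside 6.39% of all genes) and none lower, with a median of 0.48. *urg2*, a gene of uracil use, had 7645 and 7242 counts in *rrp6*Δ and 1457 and 1422 in WT (log2 fold change 2.37, standard error 0.11, adjusted p = 2.05e-11 by limma). CUT2128, which ended 153 nt from it, had 22.2 and 34 in *rrp6*Δ and 0 and 4.37 in WT. Both *rrp6*Δ libraries were above both WT libraries for *urg2*, and at CUT2128 that follows from how CUTs were chosen. *caf5*, a spermine transporter gene faced by CUT533, had 3011 and 3212 in *rrp6*Δ and 883 and 809 in WT (1.88, standard error 0.12). SPAPB24D3.08c, an oxidoreductase gene faced by CUT2277, had 2664 and 2784 in *rrp6*Δ and 902 and 1024 in WT (log2 fold change 1.5, standard error 0.12). The libraries of the strains did not overlap at any of these. SPAC23H4.05c (2.02), SPAC27D7.11c (1.67), *pdc202* (1.29) and *frp2* (1.11) made up the rest. SPAC27D7.11c and SPAC27D7.09c, the But2-family genes on either side of CUT2405, were both called higher, at 1.67 and 2.90. Under 3 other scalings 3 or 4 genes of this class were called higher, and *urg2* and *caf5* lost their calls under none of the alternatives. *frp2* lost its call under all 4 other scalings and *pdc202* under 3 of them. SPAPB24D3.08c lost its call with TMM over all transcripts and with DESeq2, SPAC27D7.11c with DESeq2 and SPAC23H4.05c under quantile normalization.

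Some genes had members at more than 1 side. *pdc202* had CUT1996 before its start, with 150 and 158 counts in *rrp6*Δ and 20.3 and 34.2 in WT, and CUT742 facing its end, with 22.2 and 35 in *rrp6*Δ and 12.4 and 13.1 in WT. Between *frp2* and *pfl3*, which point at each other, CUT1574 and CUT287 overlapped on opposite strands. CUT1574, past *frp2*, had 42.7 and 48 in *rrp6*Δ and 15.9 and 21.1 in WT, and CUT287, past *pfl3*, had 36.1 and 30 in *rrp6*Δ and 0.884 and 1.46 in WT. The 2 CUTs were thus near the same level in *rrp6*Δ and not in WT. CUT288 lay 223 nt before the start of *pfl3*, so this gene had members at both ends.

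**Figure D5:**
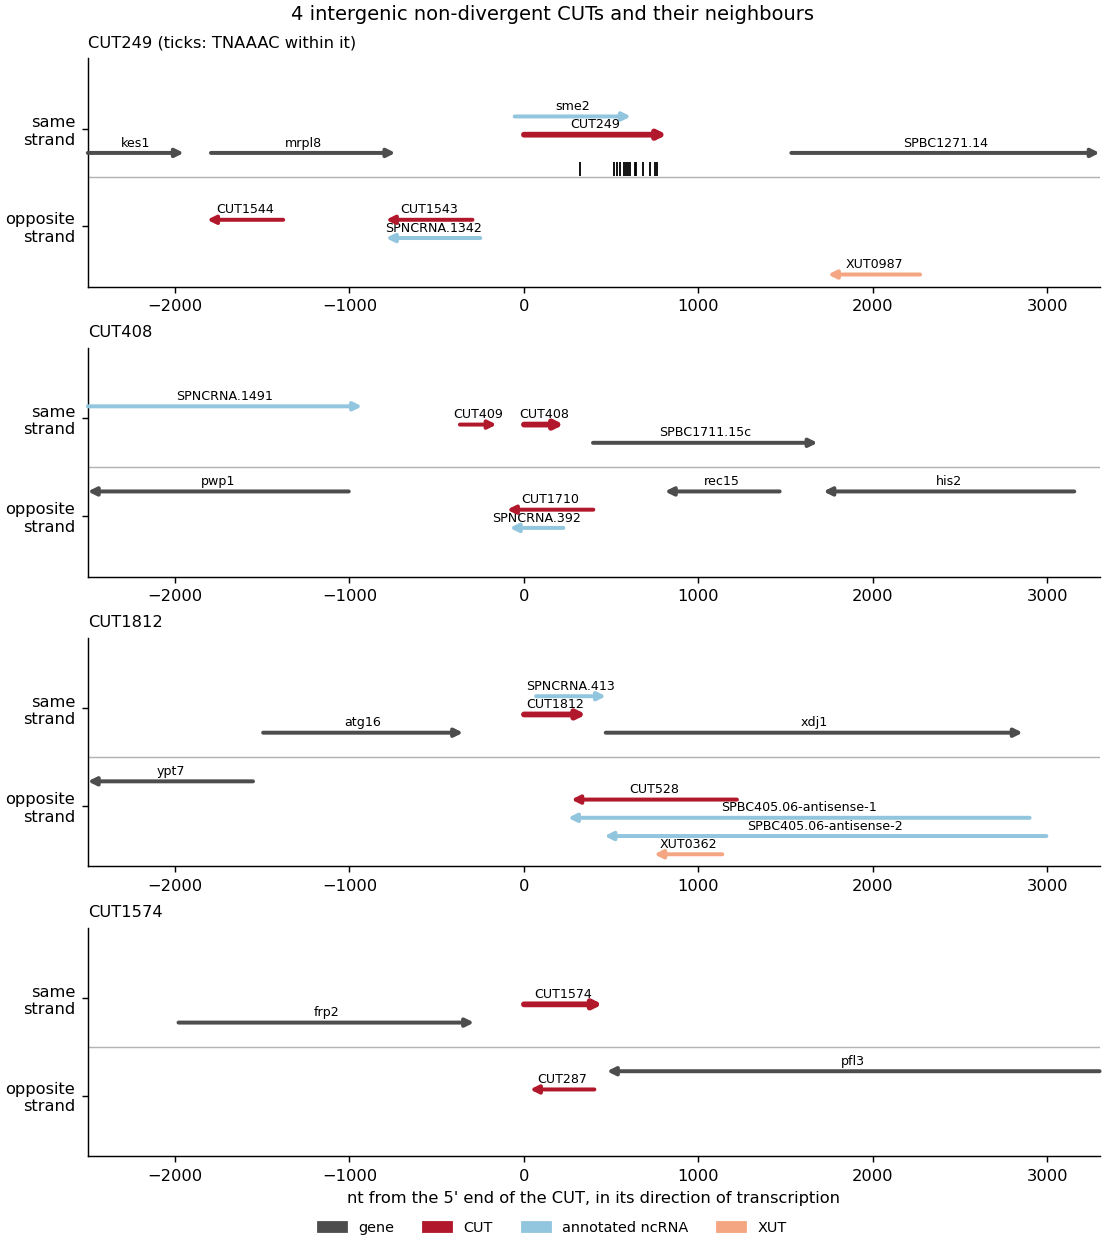
Maps of 4 members and their neighbours, to scale, with nt from the 5′ end of the member on the x axis, entries of its own strand above the line and of the opposite strand below; longer genes are clipped at the panel edge. In the top panel the ticks are the 14 TNAAAC of CUT249, of which 13 lie between 515 and 763 nt from its start.

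Members often had another unstable transcript across from them. An opposite-strand CUT overlapped 71 of 230 members on the chromosomes (30.9%), against 22.9% of divergent CUTs, 34.0% of those shared with a XUT and 4.39% of CUTs over genes. Counting the mating-type contig there were 73 such members, with 5′ ends overlapping at 24, 3′ ends at 18, and 1 transcript inside the other at 31. In 13 pairs both transcripts were members. Within pairs the higher had 1.04 to 4.88 times the counts of the lower in *rrp6*Δ, with a median of 1.74. The closest pair was CUT1899 and CUT641, at a mean of 43.6 and 45.4 in *rrp6*Δ and of 6.64 and 7.02 in WT.

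The level of the opposite strand bears on the reading of some members. Of 130 members with any opposite-strand entry, 14 had at most 5% of its counts in both *rrp6*Δ libraries. These shares compare counts of whole entries, with no correction for length and no limit to the overlap. CUT1097 was at 1.36 and 1.42% of SPNCRNA.242 in *rrp6*Δ and at 0.161 and 0.172% in WT, where SPNCRNA.242 itself had 104642 and 106988 counts in *rrp6*Δ and 88450 and 94634 in WT. CUT938 was at 3.78 and 3.01% of SPNCRNA.831 in *rrp6*Δ and at 1.44 and 1.66% in WT, and CUT1673 at 1.6 and 1.72% of SPNCRNA.1469 in *rrp6*Δ and 0.464 and 0.471% in WT. Of the 14, 10 had a higher share in both *rrp6*Δ libraries than in both WT libraries, these 3 and CUT1007 among them. Where the opposite entry was not itself chosen by a rise, a higher share largely follows from how CUTs were chosen. It therefore does not bear on wrong-strand reads. At 3 the libraries overlapped (CUT85, CUT583 and CUT2353). CUT615 went the other way, with 3.01 and 3.07% of SPNCRNA.1650 in *rrp6*Δ and 5.31 and 6.21% in WT. The part of reads assigned to the wrong strand was not tested.

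Most members had no counterpart among the annotated transcripts of the table, and many had in RefSeq. Of 232, 52 overlapped a same-strand annotated ncRNA, 7 a XUT and 3 another non-coding unit, and 171 (73.7%) overlapped none of these. The rule for members had set aside CUTs shared with a XUT, so it lowered the XUT count and raised the share with none. On the chromosomes, 22.6% of members overlapped a same-strand annotated ncRNA, against 23.9% of all CUTs. Members with an annotated ncRNA had a median log2 fold change of 2.36 (n = 52), those without 2.94 (n = 180). In RefSeq, 167 of 230 members (72.6%) overlapped a same-strand lncRNA, which covered at least 90% of the member at 112, against 76.8% of all CUTs. CUT1007 and CUT680 were among those with none. CUT522 overlapped a 5S rRNA gene entry, SPRRNA.54. Within 500 nt of a stable RNA gene (tRNA, rRNA, snRNA) 4 members lay after it and 6 before it, CUT1028 and CUT100 among them.

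The sequence of members was rich in A and T. The median GC content was 31.5%, against 30.7% for divergent CUTs, 35.1% for CUTs over genes and 36.7% for genes. In the first 200 nt, 38.7% of members held TNAAAC, 26.1% AATAAA (the poly(A) signal) and 20% TATAAA (the TATA box), against 36.9, 23.7 and 16.6% of all CUTs, counted on the strand of the transcript. In the 100 nt before the start, 13.0% held TNAAAC, 16.5% AATAAA and 13.0% TATAAA, against 18.3, 15.2 and 10.1% of all CUTs. Among the intergenic CUTs that are divergent, and among those shared with a XUT, 22.6% each held TNAAAC before the start. These shares were not tested. Over their whole length, 102 members held no TNAAAC and 5 held 5 or more. CUT249 led with 14 in 821 nt, of which the stretch printed above holds 13, followed by CUT2405 (11 in 3113 nt), CUT1376 (7 in 816 nt), CUT2137 (6 in 603 nt) and CUT1688 (5 in 512 nt). Of these, CUT249 had the largest log2 fold change at 4.48, and CUT2137, with 192 and 193 counts in *rrp6*Δ and 79.5 and 97.6 in WT, the smallest at 1.12. CUT938, with 34.5 and 27 in *rrp6*Δ and 7.07 and 9.47 in WT, was at 1.81. A match is a description, not a binding site.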

How the data were processed

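RNA-seq of *rrp6*Δ and WT cells (2 libraries each, biological replicates by the labels) was analysed from 1 table. The authors deposited signal values, namely normalized read counts and densities per nt, for 21852 entries. Of these, 10204 are pieces of coding sequence and 28 repeated pseudogene entries, leaving 11620. Reads were mapped with TopHat, and densities were normalized on ERCC signals by the methods. Each deposited normalized read count is a whole number of reads times 1 factor per library (0.820 and 1 for *rrp6*Δ, 0.884 and 0.729 for WT; 100% of values whole at a tolerance of 1e-06).

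Positions were compared on the table's coordinates. The authors' build for this experiment is not given in the sources used here, and in ASM294v3, 5116 of 5119 coding sequences (99.9%) open with ATG. The libraries are strand-specific by the methods. How fully they separate the strands of overlapping transcripts was not tested.

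Values were put on the scale log2(normalized read count + 0.729) and fitted by limma-trend (limma 3.58.1, R 4.3.3). The pseudocount understates the change of transcripts with few reads. filterByExpr of edgeR 4.0.16 (minimum count 10) kept 11227 transcripts, over which p-values were adjusted by Benjamini-Hochberg. Transcripts were called at more than 2-fold with an adjusted p under 0.05. The test, checked on simulated counts for this comparison (11227 transcripts), called 50 of 50 changed 4-fold, 47 of 50 changed 2.5-fold, 1 of 50 changed 1.5-fold, 45 of 50 changed 0.4-fold and 0 of 11027 unchanged. The simulation took the scaling of the libraries as known, so it cannot show how far the calls depend on scaling. No library is a repeat of another: chi-square over degrees of freedom between replicates was 28.5 in *rrp6*Δ and 126 in WT.

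Alternatives were 3 other scalings in limma, DESeq2 1.42.0 with its own size factors, edgeR on recovered reads, other filters and pseudocounts, a replicate block, each library left out, and other distances and rules for members. Python 3.11.15, pandas 2.3.3, numpy 2.4.6 and matplotlib 3.10.9 were used for summaries.

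Named members were, in each class, the 4 most dense in *rrp6*Δ and the 4 with the largest fold change above the median level, the 3 longest, those with 0 reads in WT and those beside listed genes. Named neighbouring genes were those called and the 8 with the smallest adjusted p in each class. Other members, and genes set beside members, were named after their values were seen. Members and lists were chosen with earlier results of these data known. Besides the lists in the text, of 10 genes with known non-coding transcription *tgp1* and *cta3* were higher and *pho84* lower, and of 8 hexose transporters *ght6* was higher.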

Additional observations from a re-analysis of the deposited data

How the results depend on the processing

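With TMM scaling over all transcripts, TMM from protein-coding genes, quantile normalization and DESeq2, in that order, the 4 genes called higher downstream of tandem members became 1, 2, 1 and 1, and the 0 called lower 3, 1, 3 and 5. The 6 called higher before members past 3′ ends became 1 under each, with 4 lower under quantile normalization and 1 under DESeq2. Of the 7 called higher at 3′ ends that members face, 4, 4 and 3 were left in number under TMM over all transcripts, quantile normalization and DESeq2, with 1 lower under DESeq2. These alternatives for facing members were chosen after seeing the data. Over all protein-coding genes 172, 232, 117 and 143 were higher under the 4 scalings in place of 324, and 157, 58, 188 and 254 lower in place of 30. The median log2 fold change of members, 2.84, became 2.32, 2.60, 0.81 and 2.25, and 196, 216, 93 and 180 members were called. Counts of members called here and below have no share over all CUTs beside them. They therefore do not set members apart from other CUTs.

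A minimum of 50 reads left 122 members called, and the median of the members that passed this filter was 2.96. A pseudocount 10 times larger gave a median of 1.99. Without the XUT condition the median was 2.56, and with no other entry but CUTs and XUTs 120 members had a median of 3.05. With divergent starts within 1000 nt there were 143 members. With 200 nt as the distance to a gene there were 35 tandem, 11 past, 17 facing and 171 remote members, with 2 genes higher after tandem members and 1 before those past a 3′ end. With 1000 nt there were 136 tandem and 55 remote members, and 7 genes higher after tandem members. The ratio of the members' share of CUT reads, 1.63, was 6.80 as a share of non-rRNA reads and 1.39 without CUT249, which was chosen after seeing the data. Under quantile normalization CUT2405 was at −0.20, SPAC4H3.04c at −0.022, *frp2* at −0.045 and *wtf8* at −0.39, and under DESeq2 SPCC569.05c was at −0.00064. The cause was not tested.

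Leaving out each library in turn gave 3 to 4 genes higher after tandem members, 3 to 6 before members past 3′ ends, 284 to 383 higher and 24 to 33 lower over all genes, 213 to 229 members called, a median of 2.65 to 2.99 and a ratio of 1.56 to 1.71. Same-numbered libraries did not deviate together (correlation 0.0112), and with the replicate number as a block the counts of 4, 6, 7, 324, 30 and 232 and the median of 2.84 were the same. edgeR on recovered reads called 322 genes higher and 30 lower. Of 709 values of 51 named members and genes under alternatives, 660 kept direction and side of the threshold, 44 lost the call and 5 reversed. Few WT reads limit the folds of members: with those at 0 reads at their bound the median stayed 2.84. With 2 libraries a group, the spread rests on few values.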
